A study of Homo sapiens with 6 samples.

Results

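Progress from G1 into S phase is gated by 3 D-type cyclins, their partner kinases CDK4 and CDK6, and the small proteins that inhibit them. These 10 genes were followed in K562 cells, a human leukemia line with red cell features, before and after Flag-PCBP1 was switched on. The genes are named members of these families, chosen with earlier results of these data known: CCND1, CCND2, CCND3, CDK4, CDK6, CDKN1A, CDKN1B, CDKN1C, CDKN2C and CDKN2D, out of 62252 annotated genes matched to the deposited transcripts, 35586 of which had any count. All 10 had a mean count above 10, the limit for the test, which 21045 genes passed.

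The 3 Control libraries (−Dox) and 3 PCBP1 OE libraries (+Dox) were made from polyA RNA. The cells hold a Flag-PCBP1 cassette under a Dox-inducible promoter at the AAVS1 site, in both groups, and descend from a single K562 clone. Dox was given to the PCBP1 OE cells only, so the effects of Dox and of the protein cannot be told apart. The dose and time of Dox for these libraries are not given in the sources used here. Estimated counts summed to 84177316, 80104627 and 74766040 in Control replicates 1, 2 and 3, and to 70905656, 82263502 and 82449808 in PCBP1 OE replicates 1, 2 and 3. The labels give each library as a replicate and do not say whether the cultures were separate, so p-values measure the spread between these libraries, which may be technical.

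D-type cyclins bind CDK4 or CDK6, and the complexes phosphorylate RB, which releases E2F factors to transcribe S phase genes. INK4 proteins (CDKN2C encodes p18, CDKN2D p19) bind CDK4 and CDK6 directly, while CIP/KIP proteins (CDKN1A encodes p21, CDKN1B p27, CDKN1C p57) bind cyclin-CDK complexes and block CDK2 above all. In erythroid cells, cell cycle exit accompanies terminal maturation, and p27 and p18 are among the inhibitors known to rise as red cell precursors mature.

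PCBP1 itself, an RNA-binding protein of C-rich sequences, was measured at 159 ± 3.52 TPM (a level scaled for transcript length and library size) in Control and 593 ± 9.55 TPM in PCBP1 OE (SD, n = 3 each). The groups did not overlap. The log2 fold change was 1.94 (SE 0.055, edgeR adjusted p = 5.22e-10), 3.83-fold, which fits the labels of the 6 libraries. The count includes endogenous PCBP1 and any Flag-PCBP1 reads that match it.

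In +Dox cells the D-type cyclins CCND1 and CCND2 were lower, and the inhibitors CDKN1B and CDKN2C were higher. CCND3, CDK4, CDK6, CDKN1A, CDKN1C and CDKN2D did not pass the test. Thus 4 of 10 genes had an edgeR adjusted p under 0.05, 2 lower and 2 higher, where 15.8% of all genes tested passed, 8.16% as higher and 7.68% as lower. Without length scaling, CPM (counts scaled for library size, TMM-normalized) of the groups did not overlap for 6 of the 10, against 33.2% of all genes. The median log2 fold change of the 10 was 0.03, beside 0.01 over all genes, and the median of its absolute value 0.20, beside 0.18. In bulk RNA, fewer cells in a given cell cycle phase and less RNA per cell cannot be told apart.

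**Figure D1:**
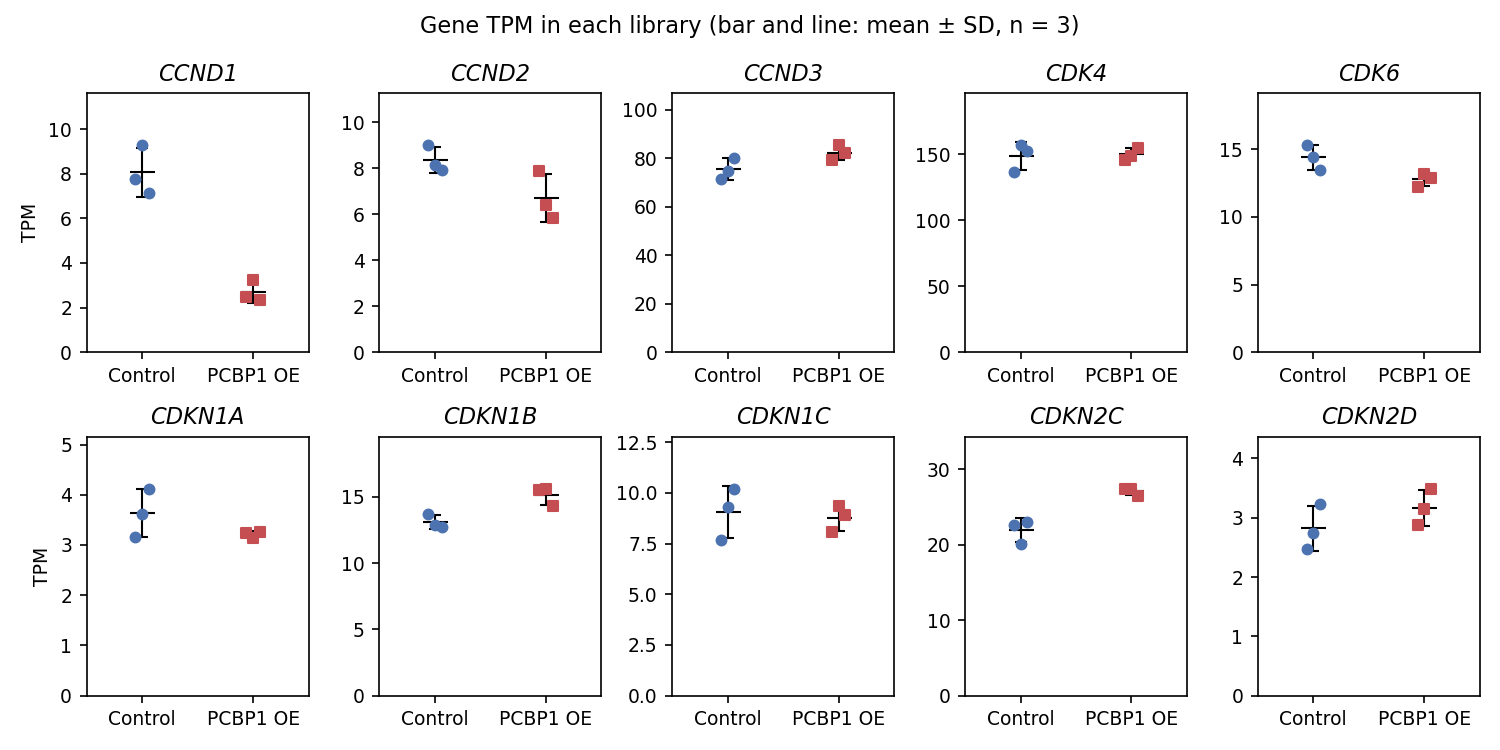
TPM of each gene (y axis, from 0, a separate scale for each gene) in the 3 Control libraries (circles) and the 3 PCBP1 OE libraries (squares), with mean ± SD. CCND1 sits between 7.16 and 9.28 TPM in Control and between 2.35 and 3.23 TPM in PCBP1 OE, while CDK4 overlaps between the groups.

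CCND1 (cyclin D1, ENSG00000110092.4, chr11:69641156-69654474, plus strand) had 7.76, 9.28 and 7.16 TPM in Control and 2.47, 3.23 and 2.35 TPM in PCBP1 OE. Every PCBP1 OE library was below every Control library. On counts, which are what was tested, CCND1 had 1393, 1281 and 1277 in Control and 624, 633 and 739 in PCBP1 OE. The log2 fold change was -0.98 (SE 0.085, edgeR adjusted p = 1.01e-05), or 0.507 of the Control level, and 4.47% of all genes tested had a larger absolute change. The study's methods define a differentially expressed gene by the same adjusted p and a fold limit of 1 on the log2 scale. Both together were passed by 1.46% of genes tested. The fold limit was missed by CCND1 here. It was passed at -1.56 with an offset for transcript length, at -1.01 without PCBP1 OE replicate 1 and at -1.04 without PCBP1 OE replicate 3. No other member passed that limit in any of the 12 alternative settings.

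The TPM of CCND1 fell further than its counts, to 0.333 of the Control mean, and TPM depends on the transcripts that reads were assigned to. The full-length coding transcript CCND1-201 (4238 bases, 5 exons) had 3.49, 3.05 and 3.54 TPM in Control and 1.82, 1.61 and 1.92 TPM in PCBP1 OE. Its 2 groups did not overlap. The counts behind it were 1277, 1079 and 1164 in Control and 597, 594 and 728 in PCBP1 OE, a log2 fold change of -0.84 (SE 0.119) that did not pass over all transcripts (edgeR adjusted p = 0.0846). The retained-intron transcripts CCND1-202, CCND1-204 and CCND1-206 are 568, 920 and 430 bases long, so a few reads give them much TPM. CCND1-202, for example, rested on 56, 75 and 48 counts in Control and 5, 32 and 0 in PCBP1 OE. CCND1-201 thus held 42.4% ± 8.57 of the gene's TPM in Control and 68.4% ± 16.4 in PCBP1 OE (SD, n = 3; two-sided exact permutation p = 0.1, and 3 against 3 libraries cannot give less). This difference of 26 percentage points came to 6.98 points when shares were taken from counts. LTO1, on the opposite strand, overlaps 10.4% of the exon bases of CCND1 and had a log2 fold change of -0.28 (edgeR adjusted p = 0.0368). Without a strand setting, which is not given in the sources used here, reads of the shared bases are divided between the genes with less certainty.

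CCND2 (cyclin D2, ENSG00000118971.9, chr12:4269771-4305353, plus strand) had 9.01, 8.17 and 7.94 TPM in Control and 7.88, 6.42 and 5.85 TPM in PCBP1 OE. All 3 PCBP1 OE libraries were lower, the first by little on TPM. CPM was further apart, at 43.5, 40 and 40.1 in Control and 32.3, 30.3 and 32.5 in PCBP1 OE. The coding transcript CCND2-201 had 6, 5.33 and 5.41 TPM in Control and 4.28, 4.14 and 4.16 TPM in PCBP1 OE. On counts CCND2-201 did not pass (log2 fold change -0.34, edgeR adjusted p = 0.139). For the gene, the test was on counts. The log2 fold change was -0.38 (SE 0.058, edgeR adjusted p = 7.89e-04), 0.769 of the Control level. The call was lost with the offset for transcript length, at -0.28 and an adjusted p of 0.142. ENSG00000285901.2, on the same strand, shares 12.5% of the exon bases of CCND2 and had 0.476 TPM in Control and 0.34 TPM in PCBP1 OE (means; log2 fold change -0.44, edgeR adjusted p = 0.235).

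CCND3 (cyclin D3, ENSG00000112576.13, chr6:41934934-42050357, minus strand) was the most abundant D-type cyclin, at 71.5, 74.7 and 80.3 TPM in Control and 79.4, 85.4 and 82.2 TPM in PCBP1 OE. On TPM the highest Control library lay within the PCBP1 OE range. The log2 fold change of 0.15 (SE 0.058, edgeR adjusted p = 0.0956) did not pass, with an approximate 95% interval of 0.04 to 0.27, before correction for the genes tested. It passed at an adjusted p of 0.0497 with every gene of at least 1 count in the test. CCND3 made up 82.1% ± 1.81 of the summed TPM of the 3 cyclins in Control and 89.7% ± 1.23 in PCBP1 OE (SD, n = 3). The summed TPM was 91.9 ± 3.6 in Control and 91.7 ± 2.92 in PCBP1 OE, so the summed cyclin D level differed by less than its spread. Share and sum rest on gene TPM, which includes the short retained-intron transcripts of CCND1. CCND1-201 alone had 3.36 of the 8.07 TPM of CCND1 in Control and 1.78 of 2.68 TPM in PCBP1 OE (means).

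The kinases did not pass in edgeR. CDK4 (ENSG00000135446.17, chr12:57747727-57756013, minus strand) had 137, 157 and 153 TPM in Control and 146, 149 and 155 TPM in PCBP1 OE, the highest level of the 10. The groups overlapped, with a log2 fold change of 0.07 (approximate 95% interval -0.04 to 0.17, edgeR adjusted p = 0.476). TSPAN31 on the opposite strand shares 44.2% of the exon bases of CDK4 and had 18.7 TPM in Control and 21.3 TPM in PCBP1 OE (means).

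CDK6 (ENSG00000105810.10, chr7:92604921-92836573, minus strand) had 15.3, 14.4 and 13.5 TPM in Control and 12.2, 13.2 and 12.9 TPM in PCBP1 OE. The groups did not overlap, though the gap was narrow. The log2 fold change of -0.14 (SE 0.051) had an adjusted p of 0.095 in edgeR and 0.0371 in DESeq2. Of both kinases, 1 had an unadjusted p under 0.05.

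Among the CIP/KIP genes, only CDKN1B passed. CDKN1B (p27, ENSG00000111276.12, chr12:12685498-12722369, plus strand) had 13.7, 12.9 and 12.7 TPM in Control and 15.5, 15.6 and 14.3 TPM in PCBP1 OE. Every PCBP1 OE library was higher, and the log2 fold change was 0.25 (SE 0.054, edgeR adjusted p = 0.00703), 1.19-fold. It passed in all 12 alternative settings, with an adjusted p of at most 0.0469. CDKN1B-201 carried 90% ± 1.53 of its TPM in Control and 90.6% ± 0.416 in PCBP1 OE.

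CDKN1A (p21, ENSG00000124762.14, chr6:36676460-36687337, plus strand), which inhibits CDK2 complexes, had 3.16, 3.62 and 4.12 TPM in Control and 3.24, 3.13 and 3.25 TPM in PCBP1 OE. The groups overlapped (log2 fold change -0.16, approximate 95% interval -0.40 to 0.08, edgeR adjusted p = 0.43). CDKN1C (p57, ENSG00000129757.15, chr11:2883213-2885775, minus strand) had 7.68, 9.31 and 10.2 TPM in Control and 8.05, 9.33 and 8.91 TPM in PCBP1 OE. Its groups overlapped too, and its log2 fold change of 0.002 (approximate 95% interval -0.23 to 0.23, edgeR adjusted p = 0.994) changed sign between settings.

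CDKN2C (p18, ENSG00000123080.12, chr1:50960745-50974634, plus strand) had 22.6, 20.1 and 23 TPM in Control and 27.4, 27.4 and 26.5 TPM in PCBP1 OE. All 3 PCBP1 OE libraries were above all 3 Control libraries. The log2 fold change was 0.41 (SE 0.053, edgeR adjusted p = 2.82e-04), 1.33-fold, and it passed in all 12 alternative settings at 0.34 to 0.44. CDKN2D (p19, ENSG00000129355.7, chr19:10566460-10569059, minus strand) rested on 226 to 334 counts per library, with 2.48, 2.75 and 3.23 TPM in Control and 2.88, 3.14 and 3.49 TPM in PCBP1 OE. Its groups overlapped, and the log2 fold change of 0.26 (SE 0.150, approximate 95% interval -0.04 to 0.55, edgeR adjusted p = 0.291) was as large as that of CDKN1B but did not pass, with a larger SE. The INK4 genes summed to 24.8 ± 1.72 TPM in Control and 30.3 ± 0.286 TPM in PCBP1 OE, and all 5 inhibitors to 50.5 ± 2.39 and 57.4 ± 1.14 TPM (SD, n = 3).

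**Figure D2:**
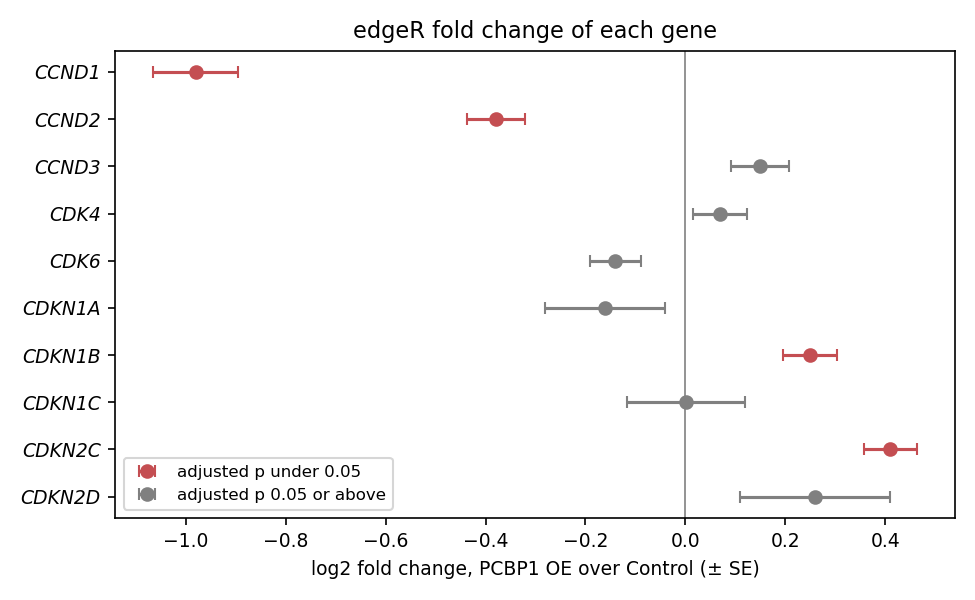
Log2 fold change of each gene, PCBP1 OE over Control (x axis, 0 is no change), from edgeR with bars of 1 SE over 3 libraries per group. CCND1 at -0.98 and CCND2 at -0.38 lie to the left of 0, CDKN1B at 0.25 and CDKN2C at 0.41 to the right, and the 6 grey genes did not pass an adjusted p of 0.05.

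Of the CDKN2C transcripts, the longer one was higher. CDKN2C-203 (2076 bases, 3 exons) had 15.5, 15.2 and 15 TPM in Control and 20.8, 20.9 and 20.6 TPM in PCBP1 OE. Its spread within each group was small beside the gap between them. Its log2 fold change was 0.51 (SE 0.053, edgeR adjusted p = 0.0464), the only one of 53 member transcripts tested to pass, where 0.204% of 86178 transcripts passed. CDKN2C-202 (995 bases, 2 exons) had 6.42, 4.46 and 6.98 TPM in Control and 5.72, 5.78 and 4.93 TPM in PCBP1 OE, and these overlapped (log2 fold change -0.07, SE 0.189, edgeR adjusted p = 0.972). The difference between the 2 transcripts was not tested on counts. CDKN2C-203 held 69.6% ± 5.21 of the gene's TPM in Control and 76.5% ± 0.873 in PCBP1 OE (SD, n = 3), a gap of 6.95 points without overlap (exact permutation test, two-sided, p = 0.1). With shares taken from counts, the gap came to 4.19 points and the groups overlapped. The call on CDKN2C-203 was lost when any 1 library was left out, with log2 fold changes of 0.49 to 0.54 and adjusted p of 0.141 to 0.196. ENSG00000290102.1, on the opposite strand, shares 20.4% of the exon bases of CDKN2C and had 0.457 TPM in Control and 0.421 TPM in PCBP1 OE (means; log2 fold change -0.14, edgeR adjusted p = 0.925). The other genes that overlap exons of the 10 (CCND2-AS1, ENSG00000290063.1, ENSG00000223946.1, CDK6-AS1 and DINOL) share 0.417% to 4.87% of them.

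CDKN2C-203 and CDKN2C-202 begin 1539 bases apart, so the sequences before both starts are shown, with that of CDK4, which held the most E-boxes among the 7 genes with an entry. Each is the RefSeq promoter entry on GRCh38.p14, 250 bases before the start, 5′ to 3′ on the gene's strand. Capitals mark the E-box CACGTG, bound by MYC-MAX among others, and the GC box GGGCGG, bound by SP1, on either strand.
CDKN2C-203, chr1:50968456-50968705, plus strand: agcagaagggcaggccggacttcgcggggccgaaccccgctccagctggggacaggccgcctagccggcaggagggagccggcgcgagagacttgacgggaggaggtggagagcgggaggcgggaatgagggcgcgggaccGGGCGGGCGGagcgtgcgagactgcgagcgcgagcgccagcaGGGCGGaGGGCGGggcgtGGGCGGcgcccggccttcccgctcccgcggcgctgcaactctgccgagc
CDKN2C-202, chr1:50969995-50970244, plus strand: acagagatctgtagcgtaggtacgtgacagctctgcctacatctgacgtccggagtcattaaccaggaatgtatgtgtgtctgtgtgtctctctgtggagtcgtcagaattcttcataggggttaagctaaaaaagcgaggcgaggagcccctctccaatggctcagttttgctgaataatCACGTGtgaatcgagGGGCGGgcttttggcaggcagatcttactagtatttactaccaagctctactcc
CDK4, chr12:57752311-57752560, minus strand: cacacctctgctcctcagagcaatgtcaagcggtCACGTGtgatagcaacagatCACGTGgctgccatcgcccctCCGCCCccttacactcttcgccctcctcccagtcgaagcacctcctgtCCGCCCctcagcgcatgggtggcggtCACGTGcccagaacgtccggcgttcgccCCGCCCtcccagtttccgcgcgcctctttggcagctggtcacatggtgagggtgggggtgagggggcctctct

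RefSeq entries matched CCND3, CDK4, CDK6, CDKN1A, CDKN1B, CDKN2C and CDKN2D, and did not match CCND1, CCND2 and CDKN1C. The stretch before CDKN2C-203 was 77.2% G or C and held 5 of the 6 GC boxes of its 300-base entry (250 bases before to 50 after the start) and no CACGTG. That before CDKN2C-202 was 48.8% G or C, with 1 GC box and 1 CACGTG. The CDK4 entry held CACGTG 3 times. CACGTG occurred in 7.26% of 35116 promoter entries and GGGCGG in 45%. TTCNNNGAA, the core of STAT sites, occurred in 7.66% and TTTCGCG, a form of E2F site, in 1.32%, and neither occurred in an entry of these 7 genes. TGTTTAC, a FOXO motif, occurred in 3.42% of entries and in 1 of CCND3. A match to letters is a description and no measurement of binding.

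**Figure D3:**
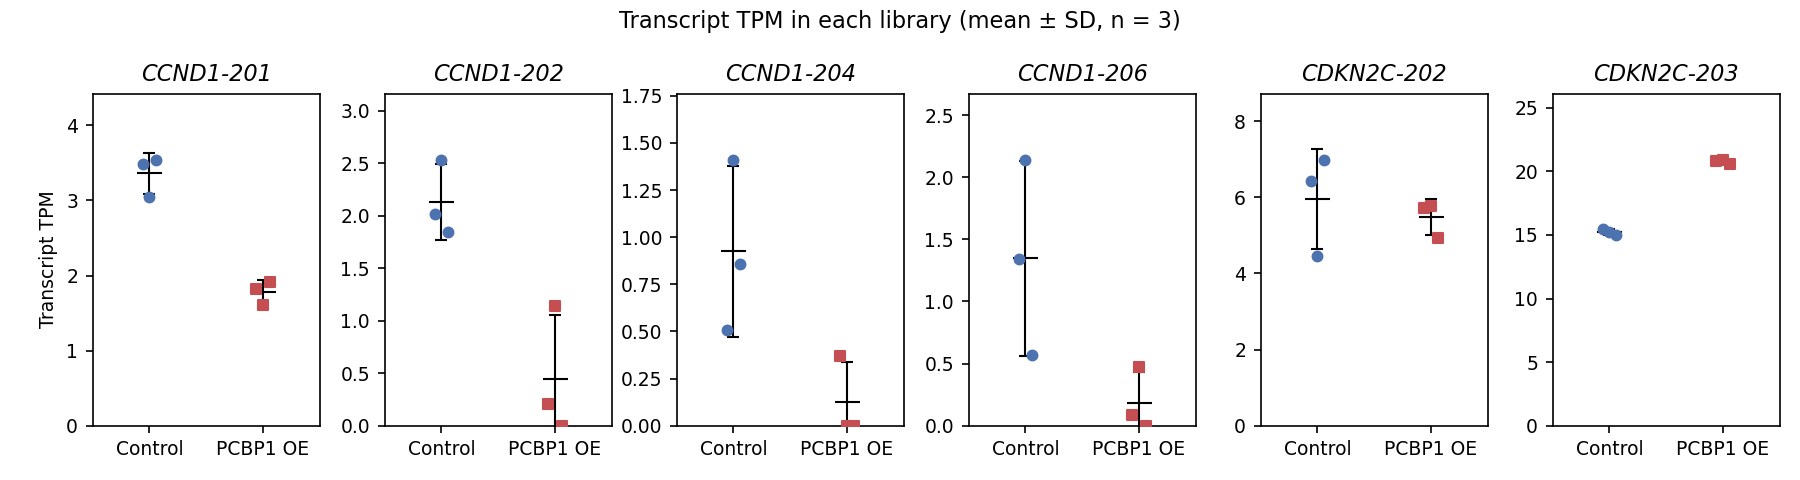
TPM (y axis, from 0, a separate scale for each transcript) of the transcripts of CCND1 and CDKN2C that held at least 10% of the gene's TPM, in Control (circles) and PCBP1 OE (squares), with mean ± SD of 3 libraries. The points of the 4 CCND1 transcripts lie lower in PCBP1 OE and those of CDKN2C-203 higher, while those of CDKN2C-202 overlap. On counts, none of the 4 CCND1 transcripts passed (edgeR adjusted p 0.0846 to 0.703).

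In all, 18 transcripts of the 10 genes held at least 10% of their gene's TPM, and the shares of 3 of them (CCND1-201, CDKN2C-202 and CDKN2C-203) did not overlap between groups, where 13% of 39932 such transcripts, of all tested genes with more than 1 transcript, did not. Those of CDKN2C-202 and CDKN2C-203 are nearly complementary, since CDKN2C has 3 transcripts. With shares taken from counts, 2 of the 18 did not overlap (CCND1-201 and CDKN2C-202). The share over all transcripts on that basis was not computed. The share of CCND3-203 was steady, at 80.5% ± 1.34 of the TPM of CCND3 in Control and 81.3% ± 1.7 in PCBP1 OE (SD, n = 3). CDKN2D-201 held 44.8%, 58.9% and 49.8% of the TPM of CDKN2D in Control and 11%, 45.7% and 47.6% in PCBP1 OE, the first PCBP1 OE library standing apart. The coding fragment CDK4-204 varied from 9.59% to 21.1% of the TPM of CDK4 over the 6 libraries.

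By TPM in Control the order was CDK4, CCND3, CDKN2C, CDK6, CDKN1B, CDKN1C, CCND2, CCND1, CDKN1A and CDKN2D. The ranges of neighbours overlapped for CDK6 and CDKN1B, for CDKN1C, CCND2 and CCND1, and for CDKN1A and CDKN2D. In PCBP1 OE, CDKN1B at 15.2 TPM stood above CDK6 at 12.8 TPM with no overlap, and CCND1 at 2.68 TPM was the lowest mean, its range reaching into that of CDKN2D.

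The other INK4 genes were not detected. CDKN2A and CDKN2B, which lie together and are lost in many leukemia lines, had 0 counts in all 6 libraries, which allows at most 0.0424 CPM (3 counts, in the shallowest library, counting error only). MTAP, their neighbour, was at 0.185 ± 0.0273 TPM in Control and 0.148 ± 0.0388 TPM in PCBP1 OE (SD, n = 3).

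Of the genes above the cyclins and inhibitors, MYC and STAT5A fell and FOXO3 rose. MYC, which activates CCND2 and CDK4 and represses inhibitor genes in many cells, had 69.1 ± 3.93 TPM in Control and 42.7 ± 2.3 TPM in PCBP1 OE (log2 fold change -0.69, edgeR adjusted p = 2.15e-06). STAT5A, which transmits cytokine and BCR-ABL signals to D-type cyclins, had 86.8 ± 6.2 and 58.5 ± 3.01 TPM (log2 fold change -0.49, edgeR adjusted p = 1.59e-05), and STAT5B had a log2 fold change of -0.16 (edgeR adjusted p = 0.0345). FOXO3, an activator of CDKN1B, had 1.35 ± 0.152 and 1.71 ± 0.156 TPM (log2 fold change 0.44, edgeR adjusted p = 0.00257), and FOXO4 a log2 fold change of 0.27 (edgeR adjusted p = 0.0163). STAT5B kept its call in 5 of 12 alternative settings (adjusted p up to 0.12), FOXO4 in 9 (up to 0.123) and FOXO3 in 11 (up to 0.0516). In all, 5 of 11 upstream regulators passed, 3 lower and 2 higher, with a list median of -0.05, where 15.8% of all genes passed, 7.68% lower and 8.16% higher. No link between these genes and the 10 was tested.

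Downstream, in the RB and E2F families, 3 of 13 genes passed, where 15.8% of all genes did, and all 3 were higher: E2F2, an activator E2F, at a log2 fold change of 0.38 (edgeR adjusted p = 0.00168), RB1 itself at 0.26 (edgeR adjusted p = 0.0116), and the E2F partner TFDP2 at 0.16 (edgeR adjusted p = 0.0336). TFDP2 was at 0.37 with the length offset and lost its call in 6 of 12 alternative settings, with an adjusted p of up to 0.123. RB1 kept its call in 9 of 12, with an adjusted p of up to 0.0761. Without Control replicate 2, and without PCBP1 OE replicate 3, E2F2 alone of the 3 kept its call. Of the genes of the CDK2 module and the CDK-activating kinase, CCNE1 (cyclin E1), which takes over from the D-type cyclins, was the 1 of 8 to pass, a share below that of all genes, from 17.8 ± 0.445 to 22.7 ± 1.28 TPM (log2 fold change 0.35, edgeR adjusted p = 0.00232). Among 14 S phase genes driven by E2F, TK1, which makes thymidine monophosphate, was higher at 0.28 (edgeR adjusted p = 0.00217), and the helicase subunit MCM6 was lower at -0.14 (edgeR adjusted p = 0.0481). The other 12 did not pass, PCNA for example at 265 ± 3.43 and 268 ± 10.1 TPM, and the list median was 0.04. The 2 of 14 that passed are likewise a share below that of all genes. MCM6 kept its call in 4 of 12 alternative settings, with an adjusted p of up to 0.168.

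Of the 13 genes that turn over cyclins and inhibitors, 6 passed, 3 in each direction, where 15.8% of all genes passed. All 6 lost the call without PCBP1 OE replicate 1 (edgeR adjusted p 0.0522 to 0.12). With a block for replicate number, only FBXO4 kept it (edgeR adjusted p = 0.0362). UBAC1, of the ligase KPC that degrades p27, had a log2 fold change of 0.17, SKP1 of 0.17 and FBXO4 of 0.23, while the cullins CUL4A and CUL1 had -0.18 and -0.15, and FBXO31, which targets cyclin D1, had -0.25 on counts (edgeR adjusted p = 0.0495). The TPM of FBXO31 was 6.27 ± 0.902 in Control and 6.35 ± 0.349 in PCBP1 OE, its fold change was 0.05 with the length offset (log2, adjusted p = 0.838), and its call held in 4 of 12 alternative settings. SKP2, which targets p27, had 70.3 ± 4.27 and 60.4 ± 2.05 TPM and did not pass (log2 fold change -0.12, edgeR adjusted p = 0.105).

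Over these lists together, 17 of 60 tested genes passed (28.3%), 10 higher and 7 lower, beside 15.8% of all genes, 8.16% higher and 7.68% lower. Neither the lists nor the members were matched in count to all genes tested, and a small change is easier to call at high counts. Of the 16 that passed and are named by rule, 5 passed in all 12 alternative settings: CCNE1, E2F2, MYC, STAT5A and TK1. The other 11 lost the call in at least 1 setting. With any 1 of the 6 libraries left out the count of 17 fell to between 8 and 11, the lowest without PCBP1 OE replicate 1 and without PCBP1 OE replicate 3. In the same fits 2267 to 3313 of all genes passed, against 3333 with 6 libraries.

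**Figure D4:**
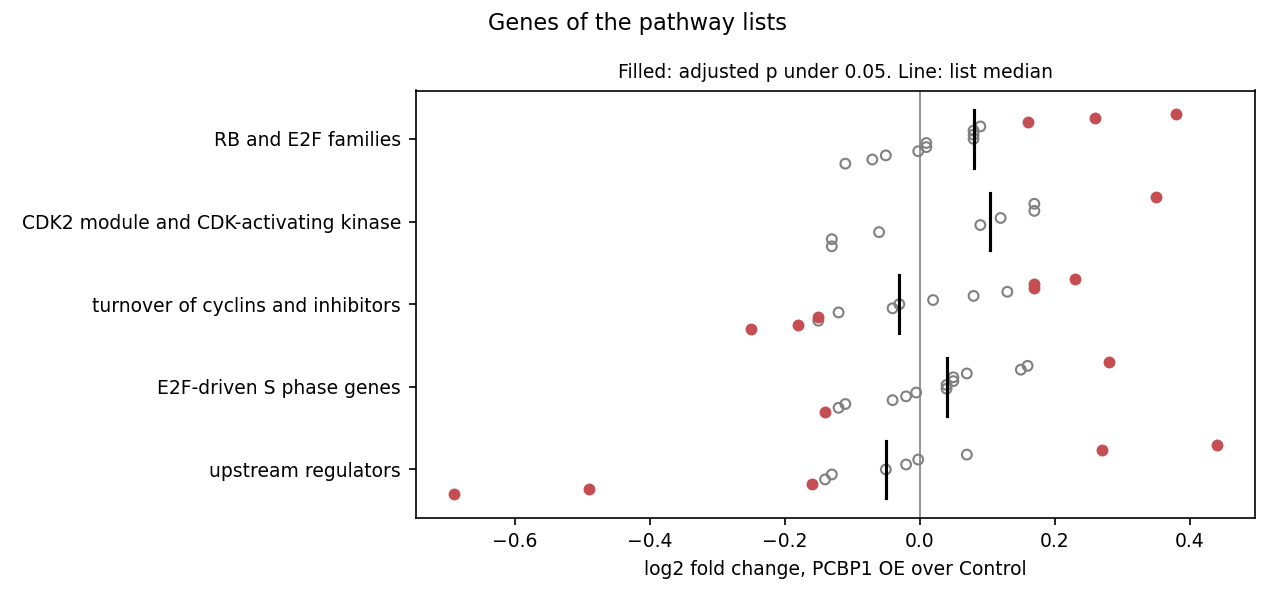
Log2 fold change, PCBP1 OE over Control (x axis), of each tested gene of 5 pathway lists (rows), filled where the edgeR adjusted p was under 0.05, with a line at the list median. The outermost points are MYC at -0.69 and FOXO3 at 0.44, and the list medians lie between -0.05 and 0.10.

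Of 9 markers of K562 cells all were detected, and 6 passed (15.8% of all genes did), 3 higher and 3 lower, with a list median of 0.02. EPOR, the erythropoietin receptor, had 7.46 ± 0.179 TPM in Control and 14.1 ± 0.383 TPM in PCBP1 OE (log2 fold change 0.97), and the erythroid factors KLF1 and TAL1 had log2 fold changes of 0.46 and 0.44. HBZ, TFRC and LMO2 were lower, at -0.40, -0.34 and -0.20. GATA1, HBG1 and HBG2 did not pass. The most abundant marker was HBG2, whose reads can be split with its near-identical copy HBG1, at 9789 ± 149 and 10000 ± 177 TPM, and the list summed to 16856, 16958 and 16357 TPM in Control and 16484, 16512 and 16221 TPM in PCBP1 OE. The part of these markers in the cyclin and inhibitor levels was not tested. Of 10 markers of other cell types, 5 had too few counts to test, MS4A1 being at 0 in every library, and the list summed to 42.1, 41 and 40.3 TPM in Control and 36.1, 35.3 and 39 TPM in PCBP1 OE, most of it EPCAM at 36.7 and 32.6 TPM (means). None of the other 5 passed in edgeR or in DESeq2, and 2 had an unadjusted p under 0.05.

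The genes whose CPM ran most like that of CDKN2C over the 6 libraries, among 9289 with a mean of at least 10 CPM, were APOBEC3B, which can share reads with close APOBEC3 copies (Pearson r = 0.9981), EIF2AK1 (0.9963) and SDCCAG8 (0.9960). Those most like CCND1 were FYB1 (0.9970), HMGA2 (0.9969) and BLMH (0.9968). The points are the same 6 libraries, with the difference between the groups among them, and r was above 0.95 for 436 genes with CDKN2C and 434 with CCND1.

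PCBP1 binds runs of C, and CCCC (overlaps counted) occurred 16.5 times per kb in CDKN1A-201 and 15.8 times per kb in CDKN1C-204, more than in 95.9% and 95% of 8695 canonical coding transcripts of at least 1 TPM, whose median was 3.83. Neither gene passed the test. The canonical transcripts of the other 8 genes had 3.02 (CDKN2C-202, which is not the CDKN2C transcript that passed) to 12.3 per kb (CCND3-203). In the 3′ UTR alone the order differed, led by CDKN1A-201 at 21.5 per kb, CCND3-203 at 13.1 and CDKN2C-202 at 8.17. CCND1-201 had 5.32, CCND2-201 4.68 and CDKN1C-204 4.25, and the others 1.49 (CDKN1B-201) to 2.93 (CDK6-202). Binding was not measured in these libraries.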

How the data were processed

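The authors quantified paired-end reads with Salmon 1.10.2, per the labels on hg38, and deposited for each transcript an estimated count, not scaled for depth or length, and a TPM value, scaled for effective length and library size. Lengths and effective lengths were deposited too. Transcripts were matched to GENCODE 44 (251612 of 252045; 433 did not match), counts were summed per gene and rounded, and the test was edgeR 4.0.16 on features whose mean count exceeded 10 (quasi-likelihood, TMM, R 4.3.3), two-sided, with Benjamini-Hochberg adjustment over all of them. SE is the fold change over the root of F. DESeq2 1.42.0 and the settings of the closing section were alternatives. Shares of TPM were compared by exact permutation tests.

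Named were the 10 genes, PCBP1, up to 5 passing genes per list by p, CDKN2A and CDKN2B, transcripts with at least 10% of a gene's TPM (some only in counts), the 3 most similar genes and genes with overlapping exons. EPOR, KLF1, TAL1, LMO2, TFRC, HBZ, GATA1, HBG1, HBG2, MTAP, MS4A1, EPCAM, PCNA, SKP2 and FBXO31 were named after their values were seen, and so were the motifs searched. The lists, like the members, were chosen with earlier results known. Some listed genes and 1 list are not reported here, and the list counts leave them out.

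Replicates differed beyond sampling noise (mean chi-square per gene 8.16 to 17.5), and libraries held 70905656 to 84177316 counts. In simulated data 100 genes were changed by each size, all drawn from those with a mean count of at least 100. Of these, edgeR called 91% of log2 changes of 1 and 67% of changes of 0.5 (20674 genes tested, 15 unchanged ones called). DESeq2 called 93% and 72%, with 29 unchanged called. Genes of lower count were not tried. On simulated transcripts, with the changed ones drawn by the same count limit, edgeR called 0% of changes of 1 and of 0.5 (80272 transcripts). A further run with larger changes, added after that result, called 66% of changes of 3 and 7% of changes of 1 (80265 transcripts, 6 unchanged called). A transcript that did not pass may therefore have changed by this much. Sequences came from RefSeq promoter entries. Tables and figures used Python 3.11.15, pandas 2.3.3, scipy 1.17.1 and matplotlib 3.10.9.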

Additional observations from a re-analysis of the deposited data

How the results depend on the processing

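The 4 calls on CCND1, CCND2, CDKN1B and CDKN2C kept their direction and side of the threshold in 12 alternative settings (DESeq2, RLE factors, 2 filters, a transcript length offset, a replicate block and each of 6 libraries left out), except that CCND2 with the length offset was at -0.28 (adjusted p = 0.142), which left 1 lower gene, and the cause was not tested. CDK6 passed in DESeq2 and CCND3 with all genes of any count. PCBP1 ranged from 1.90 to 1.98. CDKN1C, near 0, turned to -0.01 in DESeq2, with RLE factors and with a summed count above 10, to -0.002 with all genes of any count, to -0.02 with the length offset, and ranged from -0.15 to 0.09 with a library left out.

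The 17 passing genes of the pathway lists numbered 9 with the length offset and 9 with the replicate block, and 8 to 11 with a library left out, and the cause was not tested. All genes passing numbered 3333, 1882 with the length offset, 2490 with the block and 2267 to 3313 with a library left out. FBXO31 turned to 0.05 with the length offset. The deviations of same-numbered libraries correlated at 0.00752, -0.0605 and -0.00285, so no shared deviation by number was seen. Whether same-numbered libraries were prepared together is not given by the labels. The block changed no call on the 10 genes. No member transcript passed with the block or any library left out (0 against 1), where edgeR was the tool, although CDKN2C-203 kept its direction (0.51 with the block, adjusted p = 0.612). Transcripts not past the threshold changed sign without a library: CDK6-202 ranged from -0.14 to 0.03, CDKN1C-204 from -0.18 to 0.15, CDKN2C-202 from -0.22 to 0.07 and CDKN2D-201 from -0.74 to 0.12. The number of isoform shares without overlap, 3, was 3 to 6 with a library left out, since 2 values overlap less easily than 3. CDKN2D rested on 226 to 334 counts per library and CCND1-202 on 0 to 75, and the part of depth in their errors was not tested.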
